A study of Mus musculus with 24 samples.

Results

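Calbindin, calretinin, parvalbumin and 4 neuronal calcium sensors were followed across subregions of the mouse suprachiasmatic nucleus (SCN), the central circadian pacemaker in the hypothalamus. The genes were chosen by symbol: Calb1, Calb2, Pvalb, Hpca, Hpcal1, Ncald and Vsnl1, 7 of the 18193 genes that had a probe set of exactly 1 symbol on the array. They were represented by 14 probe sets, of which Calb1 had 4, Ncald 3, Hpca 2 and Vsnl1 2, and each gene was led by its probe set with the highest 24-array mean. All 14 probe sets passed the filter on low values, a log2 value above 4 on at least 4 arrays, as did 13494 genes in all.

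The animals were C57BL/6 mice, obtained at 8 weeks of age and kept in constant dim red light for at least 7 days. One arm was given 30 min of light at a phase where light advances the clock and the other arm was sham-treated; tissue was taken 3.5 h afterwards, so the comparison asks which transcripts differed some hours after light. Ventral (core), central and dorsal SCN were cut by laser from stained sections 25 µm thick, which gave 6 groups of 4 arrays, each with 2 arrays amplified and labelled in batch A (replicates 1 and 2) and 2 in batch B (replicates 3 and 4). The labels do not tie arrays to animals or say how many animals an array holds. Arrays of different regions may come from the same animals. The p-values measure the spread between these arrays and take no account of such sharing. Those of region comparisons may therefore be too large or too small.

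Proteins of this group bind calcium through EF-hand loops. Calbindin, calretinin and parvalbumin act mainly as buffers that shape the size and time course of calcium signals. Neuronal calcium sensors such as hippocalcin, neurocalcin delta and the visinin-like proteins carry a myristoyl group, move to membranes when calcium rises and pass the signal to target proteins. Light reaches the SCN through glutamatergic retinal axons that raise calcium in its neurons, and calbindin and calretinin are widely used there as markers of subregions.

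The values are log2 expression levels, and the batches were not on one scale: array medians were 3.52 to 3.62 for batch A but 4.81 to 5.07 for batch B. Levels are therefore given by batch, and every test had the batch as a term. Neuropeptides were used to check the regional labels. Vip, a core peptide, was higher in ventral than in dorsal tissue by 3.43 (log2) ± 0.30 (SE), adjusted p = 9.97e-08 in limma, and Avp, a shell peptide, gave -1.43 ± 0.25, adjusted p = 0.00074. Cck, which stood on the same list of shell genes as Avp, went the other way, at 1.04 ± 0.21 (limma adjusted p = 0.00252). Grp, also a core peptide, gave 1.58 ± 0.14 for ventral minus dorsal (limma adjusted p = 1.56e-07). For ventral minus central, Grp gave -0.89 ± 0.14 and Vip 0.55 ± 0.30 (limma adjusted p = 0.000251 and 0.495). The core peptides thus told ventral from dorsal tissue but did not mark ventral above central tissue. The clock gene Per2 was higher after light in ventral SCN by 2.19 ± 0.27 (limma adjusted p = 8.31e-05). One array stood furthest apart. Dorsal light array 4 had a Gapdh 3′ minus 5′ difference of 5.41 (log2), against 0.89 to 1.07 on the other 11 arrays of batch B, and a median correlation with its batch of 0.913 against 0.977 to 0.987. Values that moved most without dorsal light array 4 are given both ways. Central light array 2 also had a low median correlation with its batch, 0.955 against 0.976 to 0.982 on the other arrays of batch A.

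Promoter windows of 2 neuronal calcium sensors on chromosome 12 are shown because their transcripts differed in how they varied by region: Hpcal1 was called between regions and Vsnl1 was not, a contrast that was not itself tested. Each is the 250 bases before a RefSeq transcription start (GRCm38.p6), written 5′ to 3′ on the gene's strand, with capitals marking GC boxes (GGGCGG or, on the other strand, CCGCCC).
Hpcal1, chr12:17690559-17690808, plus strand: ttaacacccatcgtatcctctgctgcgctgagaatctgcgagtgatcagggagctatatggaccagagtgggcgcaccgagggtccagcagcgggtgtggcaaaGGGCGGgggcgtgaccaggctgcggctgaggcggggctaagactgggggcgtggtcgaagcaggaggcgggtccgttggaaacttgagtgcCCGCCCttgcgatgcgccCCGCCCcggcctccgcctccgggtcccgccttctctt
Vsnl1, chr12:11436579-11436828, minus strand: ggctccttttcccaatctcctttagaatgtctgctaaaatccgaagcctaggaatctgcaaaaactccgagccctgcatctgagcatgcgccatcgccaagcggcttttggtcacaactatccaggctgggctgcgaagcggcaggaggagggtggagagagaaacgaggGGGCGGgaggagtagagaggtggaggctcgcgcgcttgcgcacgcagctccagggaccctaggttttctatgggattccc
The Hpcal1 window held 3 GC boxes and the Vsnl1 window shown held 1, and 32.7% of 32851 windows of this length held at least 1. Neither window held the cAMP response element TGACGTCA (1.55% of windows), its shorter core TGACG (17.8%), the E-box CACGTG (6.02%) or the TATA box TATAAA (12.4%), searched on both strands, where the full element also contains the core. A second Vsnl1 window, chr12:11435652-11435901, held 0 GC boxes. The reference held windows for 4 of the 7 genes, Hpca, Hpcal1, Pvalb and Vsnl1.

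Across the regions, 3 of the 7 genes differed between ventral and dorsal SCN (adjusted p below 0.05 in limma over 13494 genes), against 4.61% of all genes tested. Calb2 was higher in ventral tissue, and Calb1 and Hpcal1 were higher in dorsal tissue. Between central and dorsal SCN 4 of 7 passed, against 7.11% of all genes: Calb2 was higher in central tissue, and Calb1, Hpcal1 and Ncald were higher in dorsal tissue. Between ventral and central SCN 0 of 7 passed, against 5.2% of all genes, although 3 of 7 had an unadjusted p below 0.05. These shares are a background and no test of the group, whose members were chosen with earlier results of these data known. The median difference over the 7 genes was -0.21 for ventral minus dorsal, -0.41 for central minus dorsal and 0.03 for ventral minus central, where all genes had medians of 0.01, -0.05 and 0.05. In tissue pieces like these, fewer cells of a type and less RNA per cell cannot be told apart.

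Calb2, which encodes calretinin, had the largest regional difference of the 7 genes. Its ventral log2 values, from the 1 probe set 1451129_at, were 7.68 and 7.17 after light and 8.01 and 7.81 after sham in batch A, and 9.50 and 9.75 after light and 9.87 and 9.67 after sham in batch B. Central values were 7.28 and 5.96 after light and 7.78 and 7.69 after sham in batch A, and 9.10 and 9.12 after light and 9.06 and 9.11 after sham in batch B. Dorsal values were 6.85 and 5.98 after light and 6.23 and 6.75 after sham in batch A, and 8.53 and 7.80 after light and 8.64 and 8.57 after sham in batch B. In both batches every ventral array lay above every dorsal array, while central arrays lay between them in batch B and overlapped both in batch A. The ventral mean exceeded the dorsal mean by 1.26 (log2) ± 0.19 (SE), a 2.40-fold difference (limma adjusted p = 0.000123), with 1.22 in batch A and 1.31 in batch B. Central exceeded dorsal by 0.72 ± 0.19 (limma adjusted p = 0.0187), with 0.72 in batch A and 0.71 in batch B. The step from central to ventral, 0.54 ± 0.19, did not pass (limma adjusted p = 0.115), so the order of these neighbours was not resolved.

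Calb1, which encodes calbindin-D28k, ran the other way. Ventral values of its leading probe set, 1417504_at, were 9.72 and 9.84 after light and 9.17 and 9.32 after sham in batch A, and 11.16 and 11.21 after light and 10.79 and 10.82 after sham in batch B. In central tissue it read 9.53 and 9.41 after light and 9.64 and 9.10 after sham in batch A, and 11.09 and 11.05 after light and 11.10 and 10.85 after sham in batch B. In dorsal tissue it read 10.09 and 9.95 after light and 9.82 and 9.42 after sham in batch A, and 11.40 and 11.79 after light and 11.42 and 11.31 after sham in batch B. In batch B all 4 dorsal arrays lay above all ventral and central arrays, whereas in batch A the regions overlapped. Ventral minus dorsal was -0.39 ± 0.10, a 1.31-fold difference (limma adjusted p = 0.0198), with -0.30 in batch A and -0.48 in batch B. Central minus dorsal was -0.43 ± 0.10 (limma adjusted p = 0.00792), with -0.40 and -0.46, and ventral and central differed by 0.03 ± 0.10 (95% confidence interval -0.17 to 0.24). The ventral to dorsal call rested on single arrays: without ventral light array 3 the adjusted p was 0.0516 and without dorsal sham array 3 it was 0.0542. Of the other Calb1 probe sets, 1456934_at was also lower in central than in dorsal tissue, by -0.76 ± 0.19 (limma adjusted p = 0.0177 over probe sets), and 1448738_at and 1458836_at gave -0.21 and -0.15, neither called. For ventral minus dorsal, 1456934_at, 1448738_at and 1458836_at gave -0.44, -0.46 and -0.16 (limma adjusted p = 0.297, 0.222 and 0.661 over probe sets). That call was thus made on the leading probe set alone.

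Pvalb, the parvalbumin gene, was close to the filter. Its single probe set, 1417653_at, exceeded 4 on 9 of the 24 arrays, all in batch B, where it ranged from 4.27 to 4.42 in ventral, from 3.62 to 4.09 in central and from 4.06 to 5.57 in dorsal tissue. Batch A values lay between 2.81 and 3.61. The highest value, 5.57, came from dorsal light array 4, and the other dorsal arrays of batch B ran from 4.06 to 4.40. No regional difference was called, with central minus dorsal at -0.41 ± 0.17 (limma adjusted p = 0.188), and at -0.24 without that array.

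Among the calcium sensors, Hpcal1, which encodes a visinin-like protein closely related to hippocalcin, was higher in dorsal tissue than in both other regions. Its ventral values were 5.58 and 5.73 after light and 5.59 and 5.50 after sham in batch A, and 6.74 and 6.53 after light and 6.55 and 6.72 after sham in batch B. Central tissue gave 5.83 and 5.60 after light and 5.42 and 5.60 after sham in batch A, and 6.91 and 6.99 after light and 6.79 and 6.71 after sham in batch B. Dorsal tissue gave 6.10 and 6.17 after light and 6.15 and 6.10 after sham in batch A, and 6.99 and 8.53 after light and 7.33 and 7.34 after sham in batch B. Dorsal arrays lay above every ventral array in both batches, and also above every central array in batch A; in batch B the dorsal light array at 6.99 touched the central range. Ventral minus dorsal was -0.72 ± 0.15, a 1.65-fold difference (limma adjusted p = 0.00434), with -0.53 in batch A and -0.91 in batch B. Central minus dorsal was -0.61 ± 0.15 (limma adjusted p = 0.013), and ventral minus central was -0.11 ± 0.15 (95% confidence interval -0.42 to 0.20). Dorsal light array 4 held the highest value, 8.53, and without it the differences were -0.55 and -0.44, both still called. With quantile normalization over all arrays the central to dorsal difference was -0.56 and no longer called (limma adjusted p = 0.0615).

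Hpca, which encodes hippocalcin, had its lowest mean in ventral tissue, without a call when all arrays were used. In ventral tissue, 1450930_at read 5.03 and 5.30 after light and 5.41 and 5.20 after sham in batch A, and 7.96 and 7.19 after light and 7.16 and 7.01 after sham in batch B. Central readings were 6.13 and 4.96 after light and 5.84 and 5.51 after sham in batch A, and 8.04 and 7.71 after light and 7.76 and 8.27 after sham in batch B. Dorsal readings were 6.23 and 5.77 after light and 5.65 and 5.36 after sham in batch A, and 8.94 and 6.84 after light and 7.85 and 8.10 after sham in batch B. The arrays of the regions overlapped in both batches, and dorsal light array 4, at 6.84, was the lowest of batch B. Ventral minus dorsal was -0.56 ± 0.23 (limma adjusted p = 0.224) with all arrays, and it was -0.77 (limma adjusted p = 0.00763) without dorsal light array 4. Ventral minus central was -0.49 ± 0.23 (limma adjusted p = 0.345), and the dimmer probe set 1425833_a_at, above 4 on 11 arrays, showed no called difference.

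Ncald, which encodes neurocalcin delta, had its lowest mean in central tissue and was called there against dorsal tissue. Ventral arrays gave 6.75 and 6.74 after light and 6.61 and 6.13 after sham in batch A, and 9.32 and 9.47 after light and 8.84 and 8.94 after sham in batch B. Central arrays gave 6.38 and 5.75 after light and 6.03 and 5.65 after sham in batch A, and 8.83 and 8.86 after light and 8.55 and 8.55 after sham in batch B. Dorsal arrays gave 7.40 and 6.16 after light and 6.93 and 6.33 after sham in batch A, and 9.36 and 8.66 after light and 9.50 and 9.18 after sham in batch B. Within each batch the central arrays overlapped those of the other regions at their edges. Central minus dorsal was -0.61 ± 0.16, a 1.53-fold difference (limma adjusted p = 0.0199), with -0.75 in batch A and -0.48 in batch B; without dorsal sham array 3 the adjusted p was 0.0521. Ventral minus central was 0.52 ± 0.16 (limma adjusted p = 0.0656), and passed without dorsal light array 1 (0.0145) or array 4 (0.0243). The other Ncald probe sets gave central minus dorsal differences of -0.12 for 1417569_at and 0.20 for 1444466_at, neither called. On 1417569_at dorsal light array 4 read 6.25, while the other dorsal arrays of batch B read 8.69 to 9.69, and without it the difference was -0.49 (limma adjusted p = 0.0408 over probe sets).

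Vsnl1, which encodes visinin-like protein 1, had no called difference between regions. Its leading probe set, 1420955_at, ran from 9.00 to 9.72 in ventral, 9.17 to 10.20 in central and 8.93 to 9.83 in dorsal tissue in batch A, and from 9.65 to 10.14, 10.03 to 10.37 and 9.85 to 11.06 in batch B. The differences were -0.20 ± 0.19 for ventral minus dorsal, -0.22 ± 0.19 for ventral minus central and 0.02 ± 0.19 for central minus dorsal, with 95% confidence intervals reaching no further than -0.61 and 0.41. The second probe set, 1450055_at, read 6.55 on dorsal light array 4 against 9.09 to 9.69 on the other dorsal arrays of batch B. Its central minus dorsal difference of 0.71 ± 0.33 (limma adjusted p = 0.276 over probe sets) was 0.33 without that array.

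**Figure D1:**
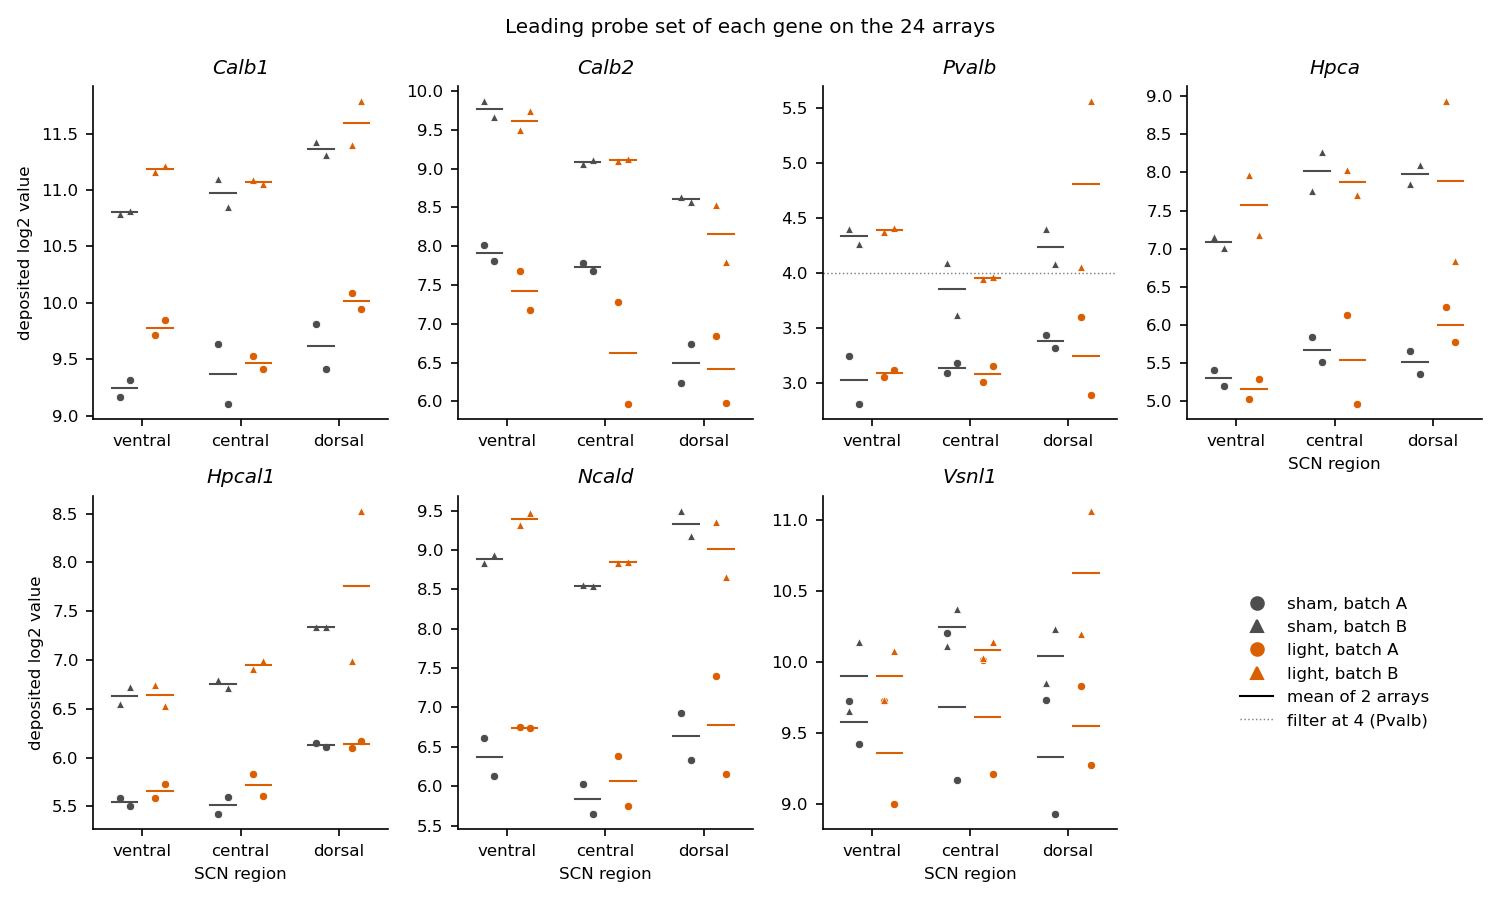
Deposited log2 values of the leading probe set of each gene on all 24 arrays, by SCN region (horizontal axis), treatment (colour) and batch (symbol), with a line at the mean of the 2 arrays of a group and batch. Calb2 steps down from ventral to dorsal in both batches, Hpcal1 is highest in dorsal tissue and Ncald is lowest in central tissue.

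**Figure D2:**
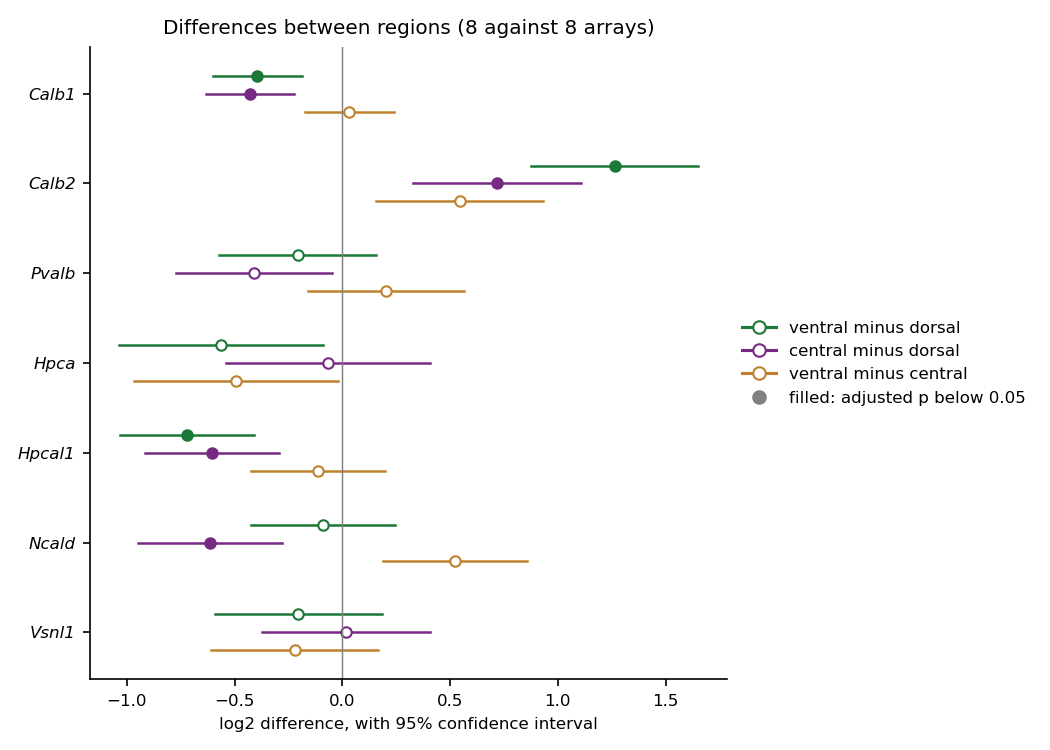
Differences between regions in log2 units with 95% confidence intervals, from 8 against 8 arrays with the batch as a term; filled points had an adjusted p below 0.05. Calb2 lies to the right of 0 in both comparisons with dorsal tissue (1.26 and 0.72), and Calb1 and Hpcal1 lie to the left.

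**Figure D3:**
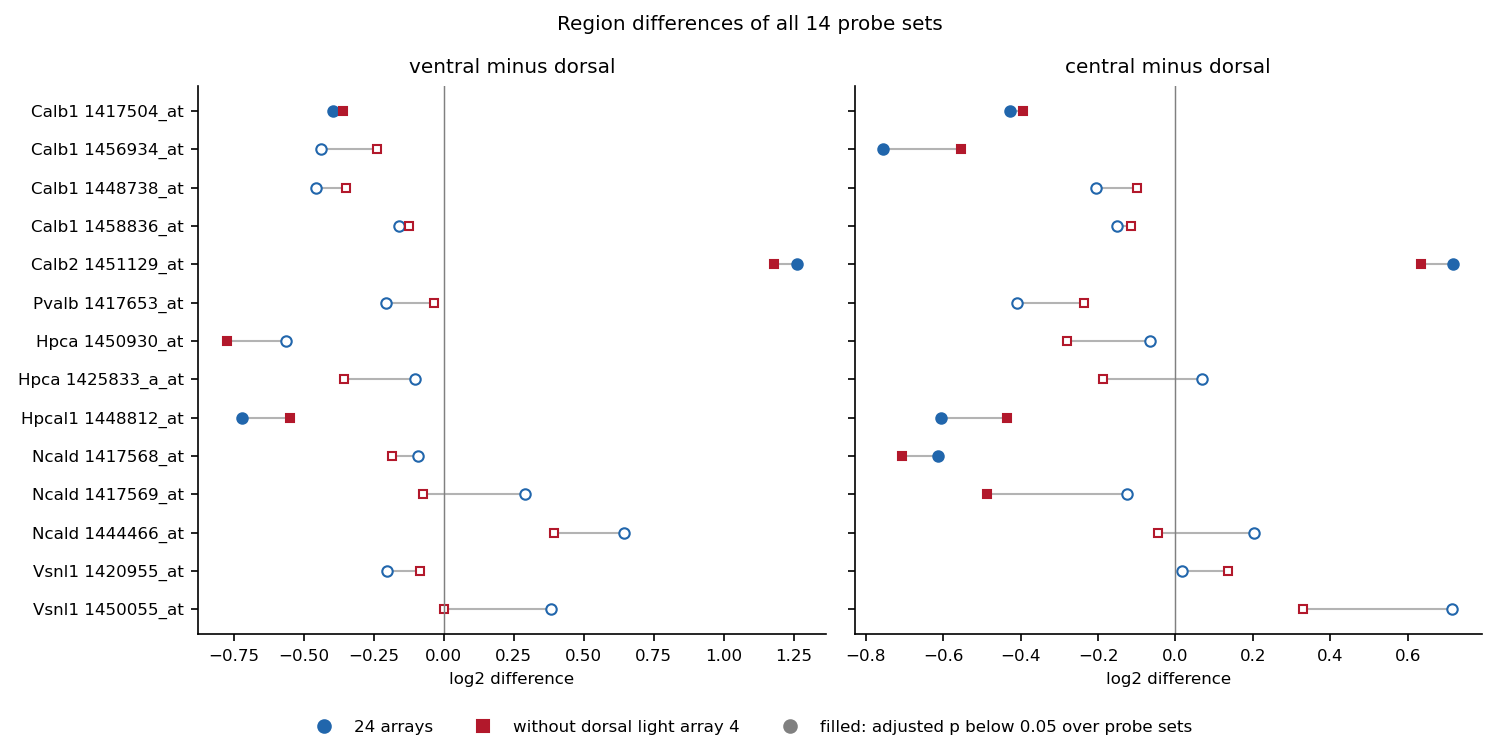
Ventral minus dorsal and central minus dorsal log2 differences of all 14 probe sets, with all 24 arrays (circles) and without dorsal light array 4 (squares); filled symbols had an adjusted p below 0.05 over all probe sets. The probe sets 1417569_at of Ncald and 1450055_at of Vsnl1 move far towards the left without that array, while Calb2 and the leading probe set of Calb1 barely move.

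Markers of other cells also differed by region. Of the genes of neighbouring hypothalamic neurons, 4 of the 10 tested were higher in dorsal than in ventral tissue (3 without dorsal light array 4, where Gal had an adjusted p of 0.0566), among them Oxt at -2.03 ± 0.46 for ventral minus dorsal (limma adjusted p = 0.00853), and the list's summed batch-centred log2 level over 12 genes had a lowest value of 2.30 and a mean of 7.69 on dorsal arrays and ran from -5.75 to -0.01 on ventral and from -6.57 to -2.34 on central arrays. Sst had the largest ventral minus dorsal difference of the called genes on this list, -5.26 ± 0.42, against a median of -0.41 over the 10 tested. General neuronal genes had sums over 11 genes from 0.23 to 5.56 on dorsal, from -2.54 to 0.10 on ventral and from -4.36 to 0.23 on central arrays. Of the 11, 2 were lower in ventral than in dorsal tissue, Syt1 at -2.04 ± 0.12 and Nefl at -1.21 ± 0.22, against a list median of -0.12. Calb1 and Hpcal1 were also called higher in dorsal tissue. Oligodendrocyte genes were higher in ventral than in dorsal tissue (7 of 9, or 8 without dorsal light array 4) and than in central tissue (9 of 9), with sums over 9 genes from 7.70 to 14.4 on ventral, from -2.28 to 2.00 on dorsal and from -15.7 to -7.79 on central arrays. Of the astrocyte genes, 7 of 10 (10 without that array) were higher in ventral than in central tissue, with sums from 2.10 to 4.76 on ventral, from -6.86 to -1.72 on central and from -5.71 to 2.55 on dorsal arrays. Endothelial and mural genes were lower in central tissue than in ventral (4 of 8) and dorsal tissue (4 of 8), with sums over 9 genes from -6.35 to -1.29 on central, from -0.40 to 5.33 on ventral and from -2.09 to 5.12 on dorsal arrays. The mean sums of microglial and ependymal genes, -1.80 and -1.53, were also lowest in central tissue. Ncald had its lowest mean there too, whereas Calb2 had its lowest mean in dorsal tissue. The part of these cells in the regional results was not tested.

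None of the 7 genes passed the test for light. In limma with Benjamini-Hochberg adjustment 0 of 7 passed in ventral tissue against 0.719% of all genes, 0 of 7 in central tissue against 0.385%, and 0 of 7 in dorsal tissue against 0.178%. Averaged over the regions 0 of 7 passed against 0.408% of all genes, and for the interaction of light with region 0 of 7 against 0.00741%. With so few genes called in all, a count of 0 among 7 is near the background. At an unadjusted p below 0.05 the counts were 1, 0 and 1 in ventral, central and dorsal tissue, all Calb1. Median differences over the 7 genes were 0.06, 0.02 and 0.22, against -0.03, -0.08 and -0.03 for all genes.

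Calb1 was higher after light in ventral tissue on all arrays of both batches, but its adjusted p did not pass. Light minus sham was 0.46 ± 0.14 there (95% confidence interval 0.17 to 0.75, unadjusted p = 0.00346 and adjusted p = 0.215 in limma), with 0.54 in batch A and 0.38 in batch B. The central difference was 0.10 ± 0.14 (-0.19 to 0.39) and the dorsal one 0.31 ± 0.14 (0.02 to 0.60, limma adjusted p = 0.483). Without dorsal light array 4 the dorsal difference of the leading probe set was 0.24. All 12 light differences of the 4 Calb1 probe sets, which measure the same RNA and are not independent, were above 0, from 0.03 to 0.86, and 8 had an unadjusted limma p below 0.05. The dorsal ones include dorsal light array 4. For 1456934_at, 1448738_at and 1458836_at they were 0.70, 0.86 and 0.50 with that array, and 0.30, 0.65 and 0.43 without it. The dimmest of these, 1458836_at, exceeded 4 on 13 of the 24 arrays. Averaged over the regions the leading probe set gave 0.29 ± 0.13 (limma adjusted p = 0.514), and 1448738_at gave 0.64 ± 0.16 (limma adjusted p = 0.208 over probe sets). On the leading probe set light was above sham for 4 of 4 replicate numbers, which are not known to be pairs.

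The probe set 1456934_at showed how far 1 array can move a call. Ventral values were 7.05 and 6.98 after light and 6.22 and 6.36 after sham in batch A, and 8.20 and 8.48 after light and 7.83 and 7.49 after sham in batch B. Dorsal values of this probe set were 7.29 and 6.85 after light and 6.93 and 6.46 after sham in batch A, and 8.35 and 9.99 after light and 8.13 and 8.13 after sham in batch B. Ventral light arrays lay above ventral sham arrays in both batches, and dorsal light array 4, at 9.99, was far above all other arrays. Its ventral light difference of 0.70 ± 0.26 had a limma adjusted p of 0.616 over probe sets with all arrays, and of 0.032 without dorsal light array 4, with the difference itself unchanged. The dorsal difference was 0.70 with that array and 0.30 without it.

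**Figure D4:**
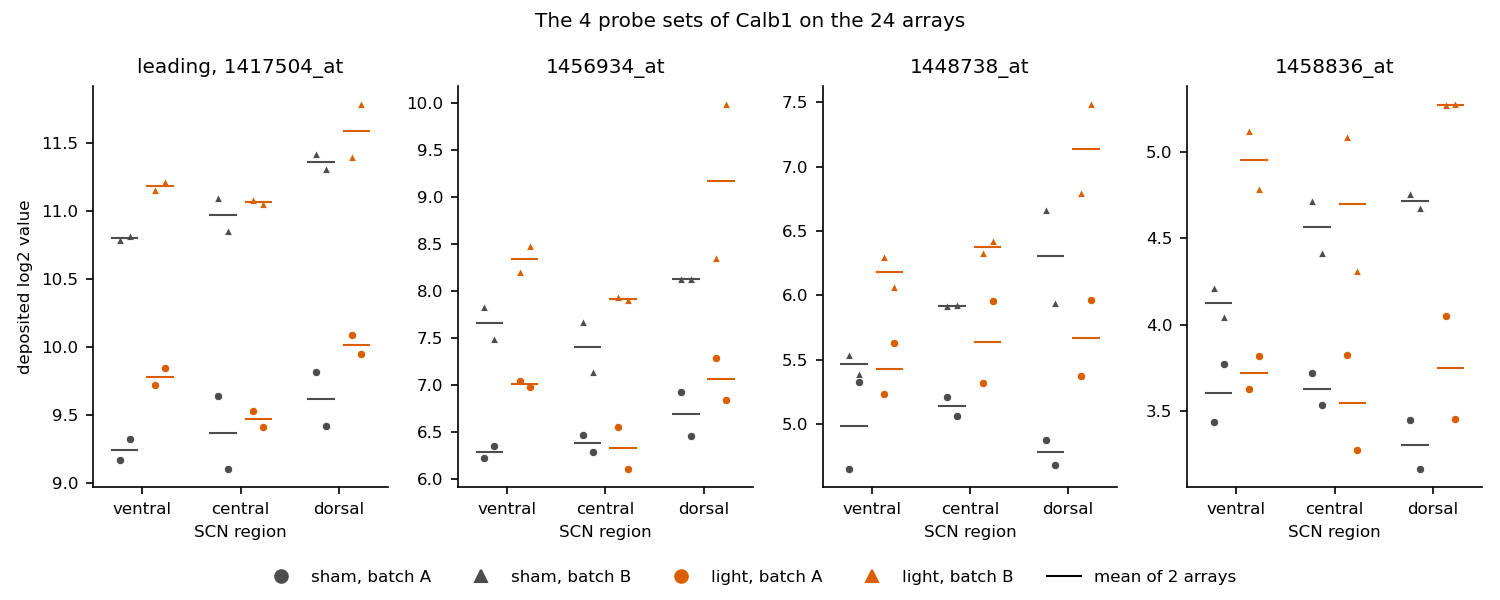
Deposited log2 values of the 4 Calb1 probe sets on all 24 arrays, by SCN region, treatment (colour) and batch (symbol), with a line at the mean of 2 arrays. Light arrays tend to lie above sham arrays, most evenly for 1448738_at, where they did so without overlap in 5 of 6 combinations of region and batch.

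Calb2 values after light were lower than after sham in each region without passing the test: -0.32 ± 0.26 in ventral, -0.54 ± 0.26 in central and -0.26 ± 0.26 in dorsal tissue (limma adjusted p = 1, 0.636 and 0.688). The average was -0.37 ± 0.19 (limma adjusted p = 0.583), with light higher for 0 of 4 replicate numbers, which are not known to be pairs. Central light array 2, the array with the lowest median correlation in batch A, had the lowest Calb2 value of all arrays, 5.96. Without it the central difference was -0.22. Without dorsal light array 4 the dorsal difference was -0.09. In batch B the central difference was 0.03, against -1.11 in batch A.

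The light differences of the other 5 genes all had 95% confidence intervals that included 0. Ncald had 0.44 ± 0.23 in ventral, 0.26 ± 0.23 in central and -0.09 ± 0.23 in dorsal tissue, the first with limma adjusted p = 0.835. Its ventral light effect exceeded its dorsal one by 0.53 ± 0.32, and the interaction test gave an adjusted p of 1, as it did for each of the 7 genes. Hpcal1 differences were 0.06, 0.20 and 0.22 in the 3 regions, those of Pvalb 0.06, 0.02 and 0.22, those of Hpca 0.17, -0.14 and 0.20, and those of Vsnl1 -0.10, -0.12 and 0.40. Without dorsal light array 4 the dorsal values were -0.13 for Hpcal1 and for Pvalb, 0.10 for Ncald, 0.63 for Hpca and 0.17 for Vsnl1, so the sign turned for Hpcal1, Pvalb and Ncald. For the leading probe sets of all 7 genes and 3 regions the 95% confidence intervals ran from -1.09 (Calb2, central) to 0.95 (Vsnl1, dorsal), and these bounds limit what the arrays could show. Intervals of other probe sets reached further, for Ncald 1417569_at to -1.54 in dorsal and 1.45 in ventral tissue. Vsnl1 1450055_at gave -0.37 in dorsal tissue, and 0.39 without dorsal light array 4.

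**Figure D5:**
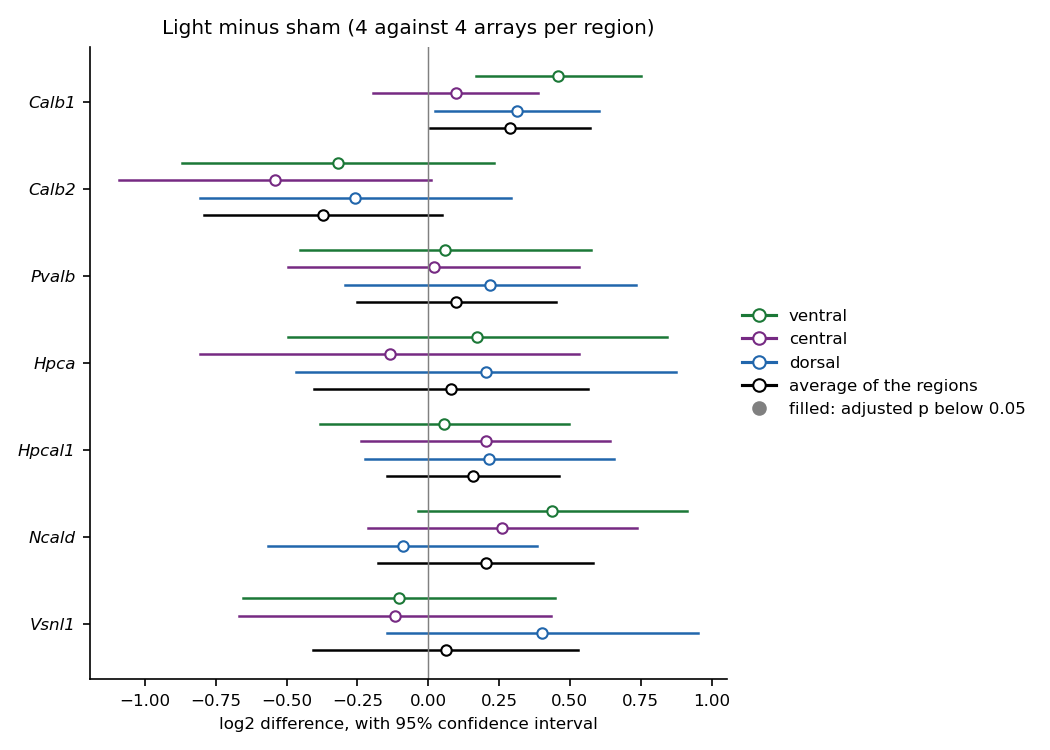
Light minus sham in log2 units for each gene in ventral, central and dorsal SCN (4 against 4 arrays) and averaged over regions, with 95% confidence intervals and the batch as a term. No point is filled, so none had an adjusted p below 0.05. The ventral and dorsal intervals of Calb1 lie above 0 (0.17 to 0.75 and 0.02 to 0.60). Dorsal light array 4 is included here, and without it the dorsal Calb1 difference was 0.24.

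Other EF-hand genes, a list of 41 of which 28 were tested, were set beside these 7. S100a10, an S100 protein that partners annexin A2, was the one that rose with light: by 1.34 ± 0.28 in ventral, 1.45 ± 0.28 in central and 1.58 ± 0.28 in dorsal tissue (limma adjusted p = 0.0203, 0.0153 and 0.0148). The list's median light difference was -0.05, -0.10 and -0.07 in the 3 regions. Between regions, 9 of 28 were higher in ventral than in central tissue and 0 lower, against 5.2% of all genes called. In central tissue 7 were lower than in dorsal tissue and 0 higher, against 7.11%. In ventral tissue 2, Kcnip4 and Necab2, were lower than in dorsal tissue, against 4.61%. Calls over all genes leaned the same way in the comparisons with central tissue. There 588 were higher and 114 lower for ventral minus central, and 265 higher and 694 lower for central minus dorsal. Without dorsal light array 4 the ventral to dorsal adjusted p of Kcnip4 was 0.0524, and 10 genes were called in each of the comparisons with central tissue. Efhd1, a mitochondrial EF-hand protein, had the smallest p among the ventral to central calls, with 1.98 ± 0.22 (limma adjusted p = 3.95e-06), followed by S100b at 1.08 ± 0.13 (adjusted p = 5.58e-06), which is also on the astrocyte list. Kcnip4, a potassium channel partner of the neuronal calcium sensor family, gave -1.62 ± 0.19 for central minus dorsal (limma adjusted p = 7.57e-06), the same direction as Ncald and Hpcal1.

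The genes whose values most resembled each member were found by Pearson correlation over the 24 arrays after each batch mean was subtracted; the arrays share region, treatment and array quality, and the values are descriptions. Calb1 was most like Tesc (r = 0.867), which encodes the EF-hand protein tescalcin, then Neto2 (0.855) and Slc6a17 (0.852). Calb2 was most like Ctdspl (0.907), Trpm3 (0.903) and Ttll5 (0.881). Those nearest to Hpcal1 were Rapgef5 (0.920), Nnmt (0.897) and Syt7 (0.893), and those nearest to Hpca were Dnm3 (0.809), Nsun7 (0.784) and Vegfc (0.775). For Ncald they were Vcam1 (0.824), Htra1 (0.807) and Pbxip1 (0.788), and for Vsnl1 Yme1l1 (0.922), Rad21 (0.918) and Trp53bp1 (0.918). Pvalb was most like Snapc4 (0.894), Snhg17 (0.893) and Uqcrc2 (0.890), which were 0.696, 0.734 and 0.712 without dorsal light array 4. Without it those of Hpcal1 were 0.827, 0.844 and 0.716, in the same order, and Syt7 ranked 61. Those of the other 5 genes then ran from 0.748 (Vegfc, for Hpca) to 0.901 (Rad21, for Vsnl1).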

How the data were processed

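Affymetrix arrays measured 45101 probe sets in 24 samples. The deposited table holds the authors' log2 values. MAS5, R 3.0.2 and GCRMA 2.32.0 are listed, without roles, in the submitters' processing notes. Per the labels' protocols, RNA was amplified and labelled in 2 batches. Probe sets with exactly 1 symbol (34945) were used, named by the platform annotation; 932 had several symbols and 9160 none. A gene was tested if its leading probe set, the one with the highest mean, exceeded 4 on at least 4 arrays. limma 3.58.1 in R 4.3.3 fitted 6 group means and the batch (17 residual degrees of freedom), with Benjamini-Hochberg adjustment over 13494 genes and a call at 0.05. Light averaged over regions used 8 means, 1 per treatment and replicate number. The code was tested on simulated data. The number of arrays limits precision. Genes named are the 7 members, the 3 genes most like each, and the called genes with the smallest p on each list; Per2 and the neuropeptides check the labels. The members and lists were chosen with earlier results of these data known. Alternatives are in the closing section.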

Additional observations from a re-analysis of the deposited data

Results flagged for a closer look

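Of 42 groups of 4 arrays (7 genes in 6 groups), 3 held an array far from the other 3 once each batch mean was subtracted. Chance gives about 1 in 20 such groups. For Calb2, central light array 2 read 5.96 against 7.28 on the other batch A array of its group, and lay at -1.13 from its batch mean where the other 3 lay at 0.04 to 0.18. For Hpcal1, dorsal sham array 1 read 6.15 against 6.10, and lay at 0.36 against 0.32 to 0.33 for the other 3, a gap of hundredths in a tight group. For Ncald, ventral light array 4 read 9.47 against 9.32, and lay at 0.46 against 0.32 to 0.34.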

How the results depend on the processing

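Of 1687 values of the 7 genes recomputed with other settings, 1641 kept their side of the threshold, 32 lost a call, 14 gained one and 0 called values changed sign, while 72 changed sign with neither value called. Most of these values were not called in the main fit. Only the 3 ventral to dorsal and 4 central to dorsal calls could be lost. The 3 ventral to dorsal calls became 0 without the batch term, 0 in batch A alone, 1 in batch B alone and 1 with sham arrays alone. The 4 central to dorsal calls became 0 in each of these settings, and 3 with quantile normalization, where Hpcal1 was lost. Over all genes, the fit without the batch term left 4 calls for ventral to dorsal and 7 for central to dorsal. Calls also depended on the probe set. Led by the probe set with the highest variance, Ncald (1417569_at) had a central minus dorsal difference of -0.12 and Calb1 (1456934_at) a ventral minus dorsal difference of -0.44. Over probe sets these had limma adjusted p = 0.873 and 0.297. The 0 ventral to central calls became 1 with the replicate block (Ncald, 0.52, limma adjusted p = 0.0113), 2 with quantile normalization, 3 with array weights and 1 without dorsal light array 4 and central light array 2. Array weights also gave 1 light call in ventral tissue (Calb1, 0.44, limma adjusted p = 0.0165) and 1 in dorsal tissue (Hpca, 0.92, 0.0321). Leaving out 1 array at a time gave 2 to 4 calls for ventral against dorsal, 0 to 1 for ventral against central and 3 to 4 for central against dorsal, and 0 to 0 for light. Over all genes it gave 488 to 727 calls for ventral against dorsal. The ranges were 549 to 1092 for ventral against central and 714 to 1185 for central against dorsal. The cause of these changes was not tested; single batches and sham arrays alone hold fewer arrays. Replicate numbers were not taken as pairs in the main fit, since the labels do not tie them to animals. The difference between the 2 replicate numbers of a batch was correlated between groups over the tested genes. Of 30 such correlations 29 exceeded 0.1, with a lowest of 0.096, a median of 0.315 and a highest of 0.623. Same-numbered arrays thus shared some variation, and its source was not tested. The replicate block changed no other count of calls among the 7 genes. Across all genes tested it gave 769, 849 and 1248 calls for ventral to dorsal, ventral to central and central to dorsal. The main fit gave 622, 702 and 959. Over all genes, leaving out 1 array moved the ventral light count from 97 to between 47 and 207, the central one from 52 to between 24 and 164, and the dorsal one from 24 to between 12 and 41, and leaving out 1 treatment mean moved the averaged count from 55 to between 13 and 57.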

Other observations

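Some calmodulin targets and calcium transport genes differed by region. Of all genes tested, 4.61% were called between ventral and dorsal tissue, 5.2% between ventral and central and 7.11% between central and dorsal. Of 30 calmodulin targets tested, 2 were higher and 2 lower in ventral than in dorsal tissue: Adcy3, an adenylyl cyclase, at 0.72 ± 0.15 (log2, SE; limma adjusted p = 0.00377) and the kinase gene Camk1d at 1.17 ± 0.27 (adjusted p = 0.00968) were higher, while Nos1, neuronal nitric oxide synthase, at -1.09 ± 0.23 (adjusted p = 0.00524) and the kinase gene Camk4 at -0.74 ± 0.20 (adjusted p = 0.0333, or 0.0585 without dorsal light array 4) were lower. Pde1c, a calmodulin-dependent phosphodiesterase, was lower in central than in dorsal tissue by -1.40 ± 0.23 (limma adjusted p = 0.000318), and Pcp4, a small calmodulin-binding protein, was higher there by 0.80 ± 0.16 (adjusted p = 0.00226). The list's median difference was -0.02 for ventral minus dorsal and -0.02 for central minus dorsal.

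Of 26 pump, exchanger and store genes tested, 2 were called between ventral and dorsal tissue, 1 between ventral and central and 3 between central and dorsal, counts near the background. Mcu, the mitochondrial calcium uniporter, and Ryr2, a ryanodine receptor, were higher in ventral than in dorsal tissue by 1.06 ± 0.25 and 0.87 ± 0.23 (limma adjusted p = 0.0123 and 0.0299, the latter 0.0525 without dorsal light array 4). Both were also higher in central than in dorsal tissue, by 1.07 ± 0.25 and 1.15 ± 0.23, where the exchanger gene Slc8a1 was lower, at -0.66 ± 0.15 (limma adjusted p = 0.0074). No gene of either list passed the limma test for light in any region, where 3, 4 and 4 calmodulin targets and 0, 1 and 1 transport genes had an unadjusted p below 0.05 in ventral, central and dorsal tissue.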
